A study of Homo sapiens with 10 samples.

Results

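The genes examined were those of the 3 retinoic acid receptors (RARA, RARB and RARG), the 3 retinoid X receptors (RXRA, RXRB and RXRG), the vitamin D receptor VDR, and CYP26A1, the enzyme that breaks down retinoic acid. They were chosen by name and are 8 of the 20033 protein-coding genes compared. For each gene, every peak summit inside the gene or within 1 kb of either end was taken from chromatin immunoprecipitation with sequencing (ChIP-seq), which maps where a protein sits on DNA. The cells were 22RV1, an established human prostate cancer line, and the labels call their treatment a transfection infection. The 6 libraries with a peak list form 3 pairs of a control and a condition: control siRNA and RB1 siRNA, EV(245-255) and HA-RB(245-255), and EV(RBN) and HA-RBN. EV stands here for the control plasmid of each overexpression experiment, and HA-RB(245-255) and HA-RBN are the plasmids carrying the named insert, of which the labels do not spell out RBN. One label field calls HA-RB(245-255) a control group, and the title, which names the construct, was followed. The labels do not name the antibody, and the title of the study is about TRIM24. Each group is 1 library, so there is no replicate spread, and intervals are 95% intervals for counting error only.

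Retinoic acid, made from vitamin A, binds a pair of nuclear receptors, 1 RAR and 1 RXR, that sits on response elements made of repeated half-sites and recruits corepressors or coactivators. RXR is also the partner of the vitamin D receptor and of several other nuclear receptors. RARB and CYP26A1 are textbook targets of the same pathway: each carries a retinoic acid response element at a promoter, so that the ligand raises a receptor and the enzyme that removes the ligand. TRIM24 was first described as a co-regulator of nuclear receptors and binds modified histone H3 tails.

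The lists held from 21666 peaks (control siRNA) to 252425 (HA-RBN), with backgrounds, which track depth, of 0.187 to 0.634 fragments per base. A level is given as the number of DNA fragments stacked at a summit, and enrichment is that number divided by the background of its library. How well each immunoprecipitation worked also enters both, so levels from different pairs are set side by side and not tested. In the 4 lists that have an IgG partner the listed intervals had median widths of 18225 to 83581 bp with 1 summit each, against 450 and 522 bp in the RBN lists. A gene without a summit there can still overlap a listed interval (overlaps counted with the 1 kb around the gene), so a missing summit is not a missing signal. Of 9 prostate markers, 2 to 7 per library had a summit within 1 kb of a gene end, with KLK3, which encodes prostate-specific antigen, in 2 libraries. Of 8 markers of other cell types, 0 to 2 had one, and over all genes 28.1% to 73.4% did, by library.

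The promoters shown are 2 that hold a summit, 2 that hold a direct repeat of receptor half-sites, and the one next to the RARB summit found in every list. They are RefSeq sequences of GRCh38.p14, written 5′ to 3′ on the strand of the gene, from 250 bases before an annotated start to 50 after it. Capitals mark the only direct repeats of retinoid half-sites spaced by 5 bases found in the 15 promoters of 7 of the genes. The first start of RARB (chr3:24829071-24829370, plus strand) lies just upstream of the summit listed in all 6 libraries. The inner start of RARB (chr3:25428013-25428312, plus strand) and the second start of CYP26A1 (chr10:93073643-93073942, plus strand) hold the repeat. Summits of 2 libraries lay inside the window of the second start of RARA (chr17:40317995-40318294, plus strand), and the summit of EV(245-255) lay inside that of the inner start of RXRB (chr6:33200616-33200915, minus strand).
RARB first start: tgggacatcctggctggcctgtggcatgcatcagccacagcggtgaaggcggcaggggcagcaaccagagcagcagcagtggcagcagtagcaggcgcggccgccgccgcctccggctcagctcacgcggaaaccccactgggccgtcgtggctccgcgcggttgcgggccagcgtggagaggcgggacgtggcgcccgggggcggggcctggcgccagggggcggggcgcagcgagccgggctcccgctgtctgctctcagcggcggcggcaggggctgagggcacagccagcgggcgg
RARB inner start: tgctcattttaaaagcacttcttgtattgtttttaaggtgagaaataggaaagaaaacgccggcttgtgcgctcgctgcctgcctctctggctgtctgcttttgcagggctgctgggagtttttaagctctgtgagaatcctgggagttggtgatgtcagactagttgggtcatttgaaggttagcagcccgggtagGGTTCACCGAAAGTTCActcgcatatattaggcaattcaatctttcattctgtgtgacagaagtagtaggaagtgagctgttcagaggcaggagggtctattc
CYP26A1 second start: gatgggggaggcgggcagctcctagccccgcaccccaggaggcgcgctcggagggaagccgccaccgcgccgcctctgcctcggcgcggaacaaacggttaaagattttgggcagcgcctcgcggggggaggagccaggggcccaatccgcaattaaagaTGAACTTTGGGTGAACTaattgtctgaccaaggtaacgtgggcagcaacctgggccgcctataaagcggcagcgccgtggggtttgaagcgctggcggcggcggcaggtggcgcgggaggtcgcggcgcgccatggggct
RARA second start: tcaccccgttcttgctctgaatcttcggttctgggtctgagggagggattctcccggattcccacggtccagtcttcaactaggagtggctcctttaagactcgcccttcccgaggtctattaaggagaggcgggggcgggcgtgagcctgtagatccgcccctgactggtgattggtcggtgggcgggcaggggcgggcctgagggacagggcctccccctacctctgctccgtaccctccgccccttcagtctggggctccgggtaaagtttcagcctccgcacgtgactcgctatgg
RXRB inner start: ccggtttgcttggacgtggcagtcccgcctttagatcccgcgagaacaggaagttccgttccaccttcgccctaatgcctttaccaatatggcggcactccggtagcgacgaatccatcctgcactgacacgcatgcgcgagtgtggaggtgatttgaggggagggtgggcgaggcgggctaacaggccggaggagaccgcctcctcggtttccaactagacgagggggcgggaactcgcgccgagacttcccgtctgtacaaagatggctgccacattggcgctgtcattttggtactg

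All 8 genes had at least 1 summit in the gene or within 1 kb of it in both RBN libraries, and fewer did in the other lists. In control siRNA 4 of 8 had one, against 42.3% of all genes. RB1 siRNA had 6 of 8 against 51.2%, EV(245-255) 6 of 8 against 71.0%, and HA-RB(245-255) 6 of 8 against 71.3%. EV(RBN) and HA-RBN had 8 of 8 against 85.2% and 91.8%. With summits at gene ends alone, within 1 kb of either end, the counts were 3, 4, 5, 3, 7 and 8 of 8 in the same order, beside 28.1%, 33.5%, 45.4%, 45.5%, 60.2% and 73.4% of all genes. The counts lay around the shares of all genes, and both were highest in the 2 longest lists. Per 100 kb of gene the receptor set held 0.459, 1.56, 2.39, 4.04, 6.89 and 7.81 summits, beside 0.919, 1.36, 3.09, 3.56, 6.57 and 9.82 over all genes. RARB alone covers 768612 bp of this length.

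**Figure D1:**
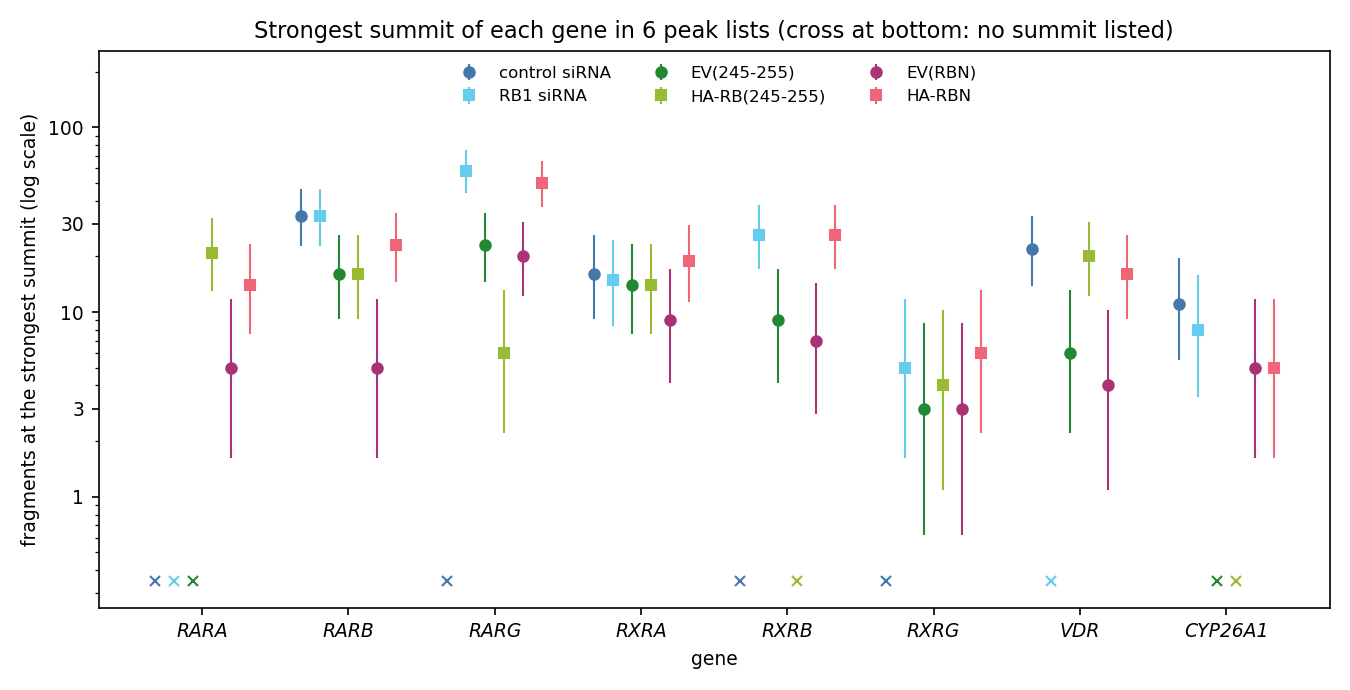
Fragments at the strongest summit of each gene (log scale) in the 6 libraries, with exact Poisson 95% intervals; a cross marks a library with no summit in the gene or within 1 kb. RARB and RXRA have a point in every library, RARG reaches the highest level with 58 fragments in RB1 siRNA, and RXRG stays between 3 and 6.

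Among the retinoic acid receptors, RARB had the most constant site. A summit lay 529 to 612 bp downstream of its first start in all 6 libraries (chr3:24829850-24829933), a span of 83 bp. The site held 33 fragments (22.7 to 46.3) in both libraries of the siRNA pair and 16 (9.15 to 26.0) in both of the 245-255 pair. It held 4 in EV(RBN) against 23 (14.6 to 34.5) with HA-RBN. As enrichment over background these were 79.9, 61.3, 85.4, 64.0, 10.9 and 36.3 in that order. EV(RBN) was thus the low library by fragments and enrichment, and the first 2 pairs held equal fragment numbers within each pair. The authors' fold enrichment, a ratio to the local background with 1 added to both, ordered the libraries otherwise. In the 4 lists with an IgG partner 1 fragment counted as 0.0166 to 0.0512 of a unit, against 1 in the RBN lists. Fold enrichments of the 2 kinds of list are therefore not comparable. The p-value behind q takes whole units only, so below 1 unit it does not rise with the fragments. At RARB the fold enrichment was 1.54, 1.57, 1.68 and 1.8 in the first 4 libraries, each with a −log10 q of 0.0. In EV(RBN) it was 3.34 with a −log10 q of 0.981, and in HA-RBN 8.7 with 15.1. RARB was the only one of the 8 genes with end summits in every list, which 13.1% of all genes had.

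The 3 other annotated starts of RARB had no summit within 1 kb in any library. They lie 511.5 to 629.0 kb into the gene, and their promoters differ from the first in composition. The first start had 76.3% G and C with CpG at 0.771 of the number its base composition predicts. The others had 30.3% to 46.7% G and C, and CpG at 0.0848 to 0.452 of that number. The inner start that carries the retinoic acid response element is the one at 46.7%. The nearest summit to its direct repeat lay 21875, 20983, 6374, 18249, 9064 and 1108 bp away in the 6 libraries, so the HA-RBN summit came closest. A further RARB site, at chr3:25189038-25189445 in the body of the gene, was listed in 3 libraries with 4, 2 and 6 fragments.

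**Figure D2:**
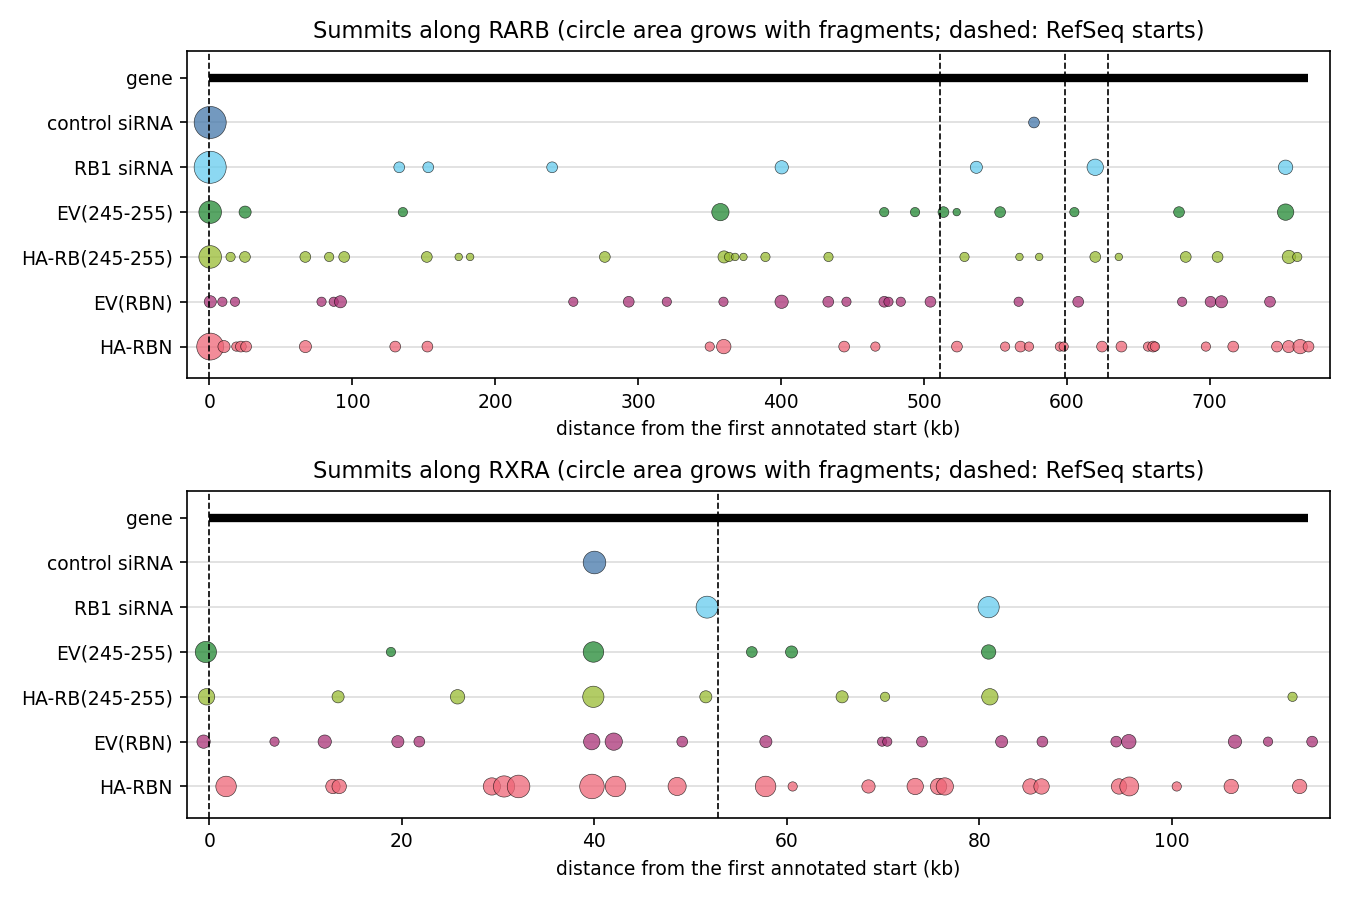
Summits along RARB and RXRA in the 6 libraries against distance from the first annotated start in kb; circle area grows with the number of fragments and dashed lines are RefSeq starts. The first start of RARB carries a circle in all 6 libraries, whereas at RXRA the summit that recurs in 5 libraries lies 39.9 kb into the gene.

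RARG held the most fragments of the set wherever its start was listed. The site lay 493 to 824 bp upstream of its single start (chr12:53232702-53233033) and had no end of another gene within 1 kb. It held 58 fragments in RB1 siRNA, 23 in EV(245-255), 20 in EV(RBN) and 50 (37.1 to 65.9) in HA-RBN, with enrichments of 108, 123, 54.6 and 78.9. Among genes with a summit, 82.0%, 79.4%, 95.4% and 94.6% had fewer fragments in those libraries. With HA-RB(245-255) the strongest summit of RARG held 6 fragments and did not lie at a gene end. In control siRNA no summit fell in the gene: an interval of 262566 bp overlapped it, whose summit was 147665 bp away and held 308 fragments. The authors' −log10 q at the RARG start site was 0.0968 in RB1 siRNA, 0.0 in EV(245-255), 8.68 in EV(RBN) and 22.5 in HA-RBN. Because of the scaling described for RARB, these q-values do not rank lists with an IgG partner against the RBN lists.

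RARA was listed in 3 libraries. The shared site (chr17:40317960-40318197) lay 48 to 285 bp upstream of the second of its 3 annotated starts. It held 21 fragments with HA-RB(245-255). In the RBN pair it held 5 in the control and 13 with the plasmid, where another summit inside the gene held 14. In control siRNA and EV(245-255) 1 interval each, of 153551 and 100398 bp, overlapped RARA, with summits 21358 and 21423 bp outside the gene. In RB1 siRNA 2 intervals overlapped it, and the nearer of their summits, in an interval of 38798 bp, lay 4623 bp outside. In those 3 libraries a RARA level was therefore not measurable from the lists.

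The retinoid X receptors, the common partners, differed in where their summits lay. RXRA had a summit in every library, but its recurrent site was internal: chr9:134366182-134366427, about 39.9 kb into the gene and 12868 to 13113 bp before its second annotated start. This site was listed in 5 libraries with 16 fragments in control siRNA, 13 and 14 in the 245-255 pair (control first), and 8 and 19 in the RBN pair. The intervals of these levels overlapped. Signal at the first start of RXRA, 299 to 607 bp upstream, was listed in 3 libraries with 14, 8 and 5 fragments (EV(245-255), HA-RB(245-255) and EV(RBN)). Another internal site, 81.0 kb into the gene, held 14 fragments in RB1 siRNA and 6 and 8 in the 245-255 pair.

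RXRB had 1 recurrent site, next to its starts (chr6:33200429-33200759), in 4 libraries. It held 26 fragments in RB1 siRNA, 9 in EV(245-255), 7 in EV(RBN) and 26 in HA-RBN, with enrichments of 48.3, 48.0, 19.1 and 41.0. The ends of SLC39A7, a zinc transporter gene, and RNY4P10 lie within 1 kb of the same summits, so the signal cannot be given to RXRB alone. In control siRNA and HA-RB(245-255) the covering intervals had their summits 221809 and 48445 bp away.

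RXRG had the fewest fragments of the receptor genes in each library that listed it. Its strongest summits held 5, 3, 4, 3 and 6 fragments in the 5 libraries that listed it, all but control siRNA. Only 8.65%, 6.92%, 14.7%, 7.26% and 23.6% of genes with a summit had fewer. Its recurrent position, chr1:165428570-165428915, lay 16211 to 16556 bp downstream of its start.

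VDR, the vitamin D receptor, had a summit at its upper end on chromosome 12 (chr12:47904687-47905362) in 5 libraries. The levels were 22 fragments in control siRNA, 6 and 20 in the 245-255 pair (control first), and 4 and 16 in the RBN pair, with enrichments of 53.3, 32.0, 80.0, 10.9 and 25.2. HA-RB(245-255) was thus the highest by enrichment and EV(RBN) the lowest. The summits spread over 675 bp, wider than the 83 bp of the RARB site. In RB1 siRNA 2 intervals overlapped the gene, and the nearer of their summits, in an interval of 80467 bp, lay 21478 bp outside it.

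CYP26A1 was listed in 4 libraries, with 11 fragments in control siRNA, 8 in RB1 siRNA, 5 in EV(RBN) and 5 in HA-RBN, and enrichments of 26.6, 14.9, 13.6 and 7.89. Of genes with a summit, 28.9%, 20.2%, 42.9% and 15.7% had fewer fragments, and its level was at or below that of the median gene in all 4. Its recurrent site (chr10:93072538-93073144) lay 331 to 937 bp upstream of the first start. In EV(245-255) and HA-RB(245-255) the nearest covering summits lay 1295 and 38201 bp from the gene with 4 fragments each.

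Within each library the order of the genes by fragments left no neighbours apart: every interval overlapped that of the gene ranked just above it. RARB led in control siRNA, RARG in RB1 siRNA, EV(245-255), EV(RBN) and HA-RBN, and RARA in HA-RB(245-255). A peak with an authors' −log10 q of at least 5 was listed for none of the 8 genes in the 4 lists with an IgG partner. EV(RBN) had 1 such gene, RARG, and HA-RBN had 4: RARG, RARB at 15.1, RXRB at 12.8 and VDR at 5.8. Over all chromosomes such peaks numbered 128, 78, 165 and 214 in the lists with an IgG partner. EV(RBN) had 2950 and HA-RBN 10161, so the contrast between lists is not particular to these genes. In the lists with an IgG partner the p-value does not rise with the fragments below 1 scaled unit. A count by q therefore does not measure how strong the signal was there. The recovered number of fragments was the lowest of several that fitted for 52 of the 252 summits in these genes, whose levels may be higher than given. Of these, 4 had at least 10 fragments: RXRA in control siRNA and at 2 sites in RB1 siRNA, and CYP26A1 in control siRNA. Lower levels printed above are among them too. Examples are CYP26A1 (8) in RB1 siRNA, RXRB (9) and RXRG (3) in EV(245-255), RXRG (4) in HA-RB(245-255) and VDR (4) in EV(RBN).

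By the genes with summits in all 6 libraries, the start site of RARB was most like those of TOR3A, CCNO and HEY1. The measure was the root mean square difference of log2 level over the 6 libraries, each level taken relative to the median gene, among 2626 genes. It was 0.12 for TOR3A and 0.17 for CCNO and HEY1. TOR3A held 37, 31, 15, 14, 4 and 24 fragments in the library order used above. Counting error is wide beside such differences: the 4 RARB fragments in EV(RBN) have an interval of 1.09 to 10.2. The ranking of the nearest genes is therefore descriptive only.

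Half-sites were searched on both strands in 4 spellings, the receptor consensus AGGTCA or the variant AGTTCA, along with the spelling GGTTCA and the spelling GGGTCA. Same-direction pairs of any of them were rare at a spacing of 5 bases: 17 of 22198 promoters (0.0766%) held one. They included the 2 textbook elements of the pathway, here written in one orientation with the half-sites in capitals, at chr3:25428210-25428226 (RARB, plus strand) and chr10:93073803-93073819 (CYP26A1, minus strand).
RARB repeat: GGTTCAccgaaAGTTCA
CYP26A1 repeat: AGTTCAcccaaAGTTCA
Both share the downstream half-site AGTTCA. The RARB repeat starts 53 bp before the inner start and the CYP26A1 repeat 90 bp before the second start. The nearest summit to the CYP26A1 repeat lay 1210, 1273, 1631, 13175, 667 and 509 bp away in the 6 libraries, none closer than 509 bp. Spacings of 1, 2 and 3 bases occurred in 0.131%, 0.036% and 0.0676% of promoters. None of the 15 promoters held an E2F-type site (TTTCCCGC, TTTGGCGC or TTTCGCGC, in 3.43% of promoters) or the ETS-type CCGGAAGT (in 5.33%), both strands searched.

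With the libraries combined, summits were listed more often at CpG-rich starts, both in the set and over all genes. A start was called CpG-rich with at least 50% G and C and CpG at no less than 0.6 of the predicted number over 300 bases. All 7 CpG-rich starts of the set had a summit within 1 kb in at least 1 library, against 4 of the 8 others. Over all protein-coding genes the shares were 92.3% of 13315 CpG-rich starts and 57.4% of 8883 others. The first start of RARB was the only one of the 7 with a summit in all 6 libraries, where 18.7% of CpG-rich starts and 3.02% of others had one. Neighbouring starts of a gene can share a summit, so they are not independent. By library the difference in the set was not constant. In control siRNA 1 of the 7 CpG-rich starts and 1 of the 8 others had a summit, beside 39.6% and 8.81% over all genes, and in EV(RBN) 7 of 7 and 3 of 8, beside 66.1% and 30.3%.

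**Figure D3:**
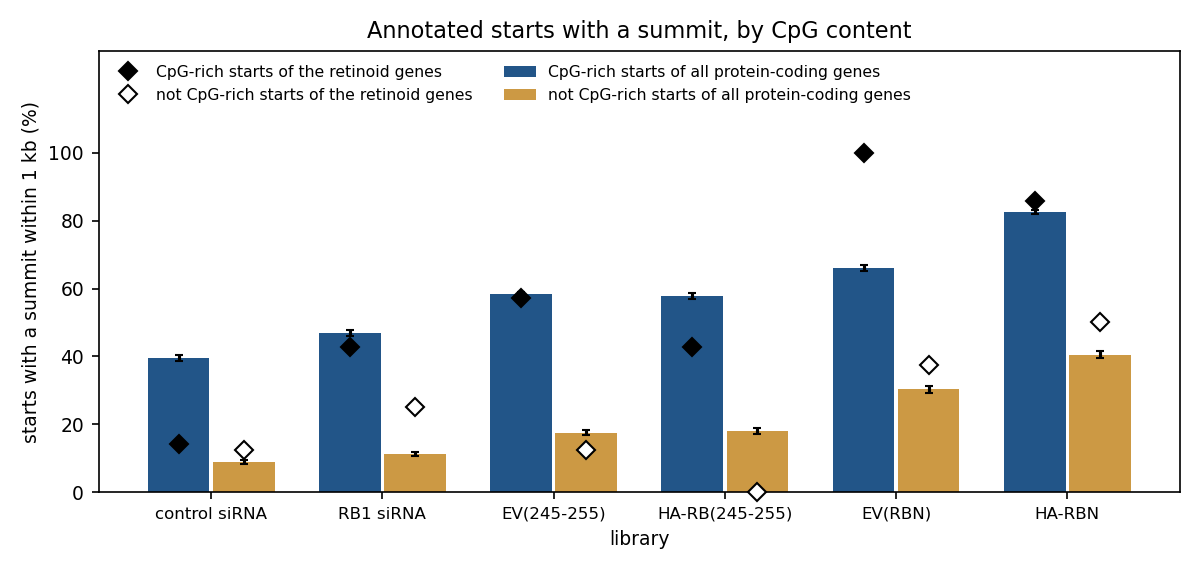
Percentage of annotated starts with a summit within 1 kb in each library. Bars are all protein-coding genes (CpG-rich starts blue, others ochre, with exact 95% binomial intervals) and diamonds the retinoid receptor genes and CYP26A1, 7 CpG-rich starts and 8 others; CpG-rich bars are the higher of the 2 in all 6 libraries, while the few starts of the set scatter around them.

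Each pair asks whether the signal differs between a condition and its control: knockdown of RB1 in the siRNA pair, and the plasmid inserts in the other pairs. A site was compared when both libraries listed a summit within 500 bp of each other, with at least 20 fragments summed. Each gene was counted by its compared site with most fragments summed. The log2 ratio was set relative to the median of all genes compared, and a value past 2-fold in either direction was counted. In the siRNA pair only RARB could be compared: 33 fragments in both libraries, a relative log2 ratio of −0.26 (−1.0 to 0.48). Over all 4622 genes 1.69% were past 2-fold higher and 1.02% lower. CYP26A1 held 11 and 8 fragments at its shared site, too few for the count.

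In the 245-255 pair 3 genes could be compared and 1 was past 2-fold, VDR, against 2.0% of all 5409 genes higher and 2.26% lower. VDR held 6 fragments in EV(245-255) and 20 in HA-RB(245-255), a relative log2 ratio of 1.78 (0.41 to 3.39), above 99.5% of the genes compared. Its summits lay 357 bp apart, and the site was no longer matched when summits had to lie within 250 bp. The ratio of the authors' fold enrichments gave 0.6. That is an unlike measure, because the 1 added to scaled fragment stacks draws ratios towards no change. In EV(245-255) the VDR summit was the last base of its listed interval. The authors' −log10 q was 0.0 there and 0.0589 in HA-RB(245-255). RARB held 16 fragments in both libraries, 0.04 (−1.05 to 1.14). RXRA held 13 and 14 at its internal site, 0.15 (−1.05 to 1.36). Its first start, not counted, held 14 and 8, −0.76 (−2.22 to 0.59). The values of RARB and the internal RXRA site turned to −0.42 and −0.31 when centred on the ratio of backgrounds in place of the median gene. That choice changed the split of all genes past 2-fold from 108 higher and 122 lower to 43 and 667.

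In the RBN pair 5 genes could be compared, and RARB was past 2-fold with an interval that included no change, against 5.72% of 6156 genes higher and 3.91% lower. RARB held 4 fragments in EV(RBN) and 23 in HA-RBN, a relative log2 ratio of 1.05 (−0.5 to 3.05); with the authors' fold enrichments it was 0.94. RARG held 20 and 50 fragments, −0.15 (−0.92 to 0.68). A second RARG site, inside the gene and not counted, held 4 and 20, 0.85 (−0.73 to 2.86). Its 4 fragments were the lowest of 2 numbers that fitted. RXRB held 7 and 26, 0.42 (−0.82 to 1.87), VDR 4 and 16, 0.53 (−1.1 to 2.57), and RXRA 8 and 19, −0.22 (−1.48 to 1.18). A second internal RXRA site, not counted, held 9 and 13, −0.94 (−2.28 to 0.47). The 4 fragments of VDR in EV(RBN) were the lowest of 2 numbers that fitted, so its ratio may be lower than given. All 5 had more fragments in HA-RBN, as the median gene did, with a log2 ratio of 1.47 before centring against 0.79 for the backgrounds. Centred on the backgrounds, all 5 counted sites were above 0, from 0.46 for RXRA to 1.73 for RARB. The split of all genes past 2-fold then went from 352 higher and 241 lower to 1735 and 19.

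**Figure D4:**
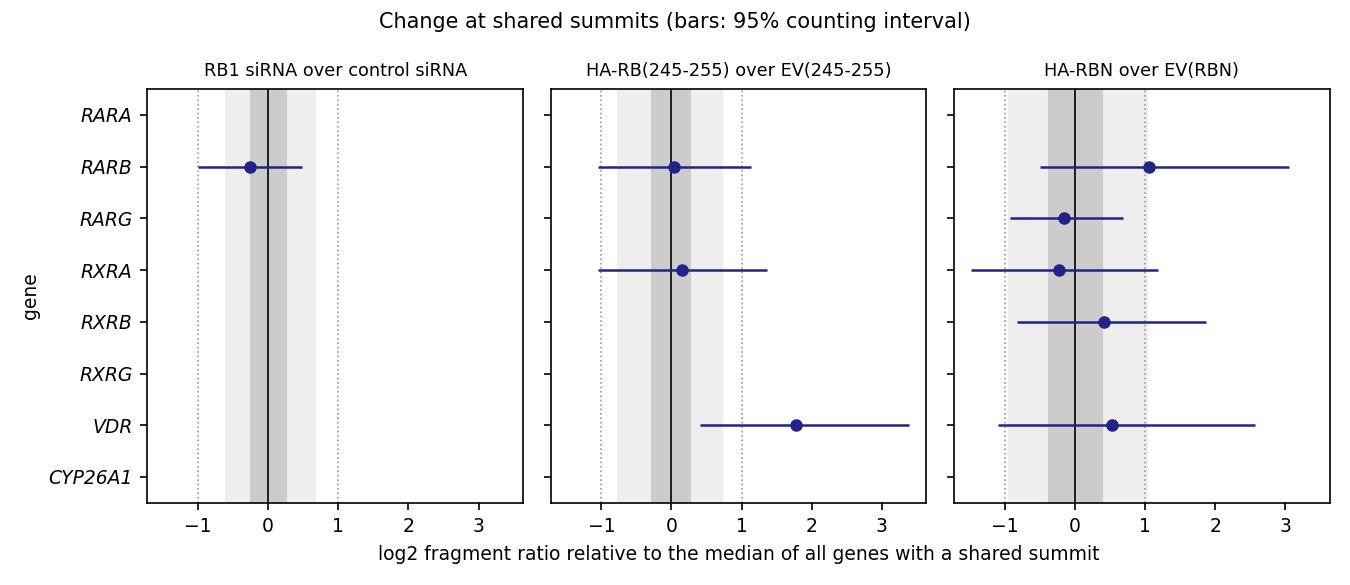
Log2 fragment ratio at shared summits relative to the median gene in the 3 pairs, with 95% counting intervals; the dark grey band spans the quartiles of all genes and the light one their 5% to 95% quantiles, dotted lines mark 2-fold, and genes with no point had no site that could be compared. VDR in the 245-255 pair, at 1.78, is the point whose interval lies above 0.

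Other genes of the pathway were counted in the same way. Over 5 lists of 63 genes (retinoid uptake and metabolism, retinoic acid targets, vitamin D metabolism and targets, other partners of RXR, and co-regulators), 13 genes could be compared in the siRNA pair and none was past 2-fold. In the 245-255 pair it was 0 of 15. In the RBN pair 1 of 12 was higher and 0 lower: NR4A1, an orphan nuclear receptor that pairs with RXR. It held 8 and 46 fragments at a site apart from its strongest gene-end summits (9 and 25), a relative log2 ratio of 1.05 (−0.04 to 2.35). The counts past 2-fold lie near the shares of all genes given above for each pair, so they set nothing apart in the pathway.

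Retinoid supply begins with uptake of retinol and its oxidation to retinoic acid. Of 21 genes of uptake and metabolism, 3, 3, 8, 5, 11 and 13 had an end summit in the library order used above. Over all genes 28.1%, 33.5%, 45.4%, 45.5%, 60.2% and 73.4% had one. The counts of this list and the following lists stand beside these shares, and no difference from them was tested. RDH10, which oxidises retinol to retinal, had one in all 6, with 67 and 93 fragments in the siRNA pair, a relative log2 ratio of 0.21 (−0.26 to 0.69), and 23 and 55 in the RBN pair, −0.21 (−0.94 to 0.56). In the 245-255 pair its strongest end summits held 6 and 35 fragments, with no ratio because they gave no shared site that could be compared. RDH5, another retinol dehydrogenase, held 25 and 26 in the 245-255 pair, 0.1 (−0.75 to 0.95). Among 10 retinoic acid targets 2, 1, 4, 6, 5 and 6 had a summit at an end. BTG2, an antiproliferative gene, was listed in all 6 and held 16 and 27 fragments in the siRNA pair, 0.49 (−0.45 to 1.48). It held 19 and 17 in the 245-255 pair, −0.12 (−1.15 to 0.91), and 7 and 15 in the RBN pair, −0.37 (−1.75 to 1.16). RARRES1, named for its induction by retinoids, was compared at sites away from its gene ends. They held 9 and 17 in the 245-255 pair, 0.96 (−0.29 to 2.31), and 10 and 16 in the RBN pair, −0.79 (−2.02 to 0.51). Its strongest end summits held 2 and 5 in the 245-255 pair, and the RBN pair listed none.

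Of 10 genes of vitamin D metabolism and response, 4, 3, 4, 6, 4 and 7 had a summit at an end. CYP2R1, the vitamin D 25-hydroxylase, had one in all 6 libraries, with 64 and 82, 32 and 41, and 7 and 37 fragments in the 3 pairs. Its relative log2 ratios were 0.1 (−0.39 to 0.59), 0.4 (−0.3 to 1.11) and 0.93 (−0.25 to 2.34), none past 2-fold. TRPV6, a calcium channel induced by vitamin D, was also listed in all 6. CYP27B1, which makes the active hormone, held 9 and 30 fragments in the RBN pair, 0.27 (−0.84 to 1.53).

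Of 12 other partners of RXR, 2, 4, 2, 5, 7 and 8 had a summit at an end. NR1H2, an oxysterol receptor, held 8 and 39 fragments at its compared site in the RBN pair, 0.82 (−0.3 to 2.12). Its strongest gene-end summits held 10 in EV(RBN) and 39 in HA-RBN. Of 10 co-regulators, 5, 5, 7, 8, 6 and 9 had one, and NCOR1, EP300 and NRIP1 were listed in all 6. EP300, a histone acetyltransferase, held 87 and 113 fragments in the siRNA pair, 0.11 (−0.3 to 0.53), and 46 and 44 in the 245-255 pair, −0.02 (−0.65 to 0.61).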

How the data were processed

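ChIP-seq peak lists of 6 libraries were analysed, 1 per group. IgG libraries, 4 in number, were left out (not analysed here). The submitters' processing notes name bcl2fastq 2.17, Trimmomatic 0.33, Bowtie 1.1.2, MACS2 2.1.0 and build hg38 without role or order. Not given in the sources used here: settings, the controls behind each list, and read totals. Each line of the deposited lists holds the authors' fold enrichment, −log10 p-value, −log10 q-value, a score and the summit's distance from the peak start. The fold enrichment is a ratio to the local background with 1 added to both, and the pileup is scaled in the lists with an IgG partner. Fragments were recovered as the pileup that satisfies the fold enrichment and the Poisson p-value together, the lowest where several fitted, after tests on simulated data. Gene and start positions came from RefSeq GRCh38.p14. Python 3.11.15, numpy 2.4.6, pandas 2.3.3, scipy 1.17.1 and matplotlib 3.10.9 were used. Levels carry exact Poisson intervals and ratios exact binomial intervals (95%). They cover counting error only, and with 1 library per group no p-value was computed.

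The 8 genes and the pathway lists were chosen with earlier results of these data known. Pathway genes are named by a rule: per list and pair, up to 4 past 2-fold, then those with most fragments up to 2, of which a selection is printed and some are not reported here; list genes with a gene-end summit in all 6 libraries were named after their values were seen. Alternatives varied the windows, q, fragment minimum, list length, centring and measure.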

Additional observations from a re-analysis of the deposited data

How the results depend on the processing

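No paired analysis was possible because each group is 1 library and the labels give no replicate numbers. For genes with a summit (4, 6, 6, 6, 8 and 8 in library order), requiring −log10 q of at least 5 left 0, 0, 0, 0, 1 and 4, at gene ends as well. The 0 values belong to the lists with an IgG partner, where q does not follow the fragments below 1 scaled unit. Lists of the same length left 4, 3, 3, 4, 5 and 5, and at gene ends 3, 2, 3, 3, 3 and 4. A minimum of 10 fragments left 4, 4, 3, 4, 1 and 6. In control siRNA a window of 0 kb left 2, as did summits with a single solution, an alternative chosen after seeing the data. Within 500 bp of a gene end, 1, 1, 3, 2, 4 and 4 genes had a summit. The shares of all genes under these settings are not given here, so no fall can be read as particular to the set.

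The percentage of all genes past 2-fold moved most. In the siRNA, 245-255 and RBN pairs it was 3.5, 8.14 and 12.3% with 10 fragments summed, 1.5, 1.58 and 7.02% with 40, 0.0865, 0.647 and 2.79% by the authors' fold enrichment, and 1.59, 3.53 and 8.59% with single-solution summits. Sharing within 250 bp gave 1.94% and 3.27%, and within 1000 bp 3.7% and 6.71%, in the siRNA and 245-255 pairs. Centring on the background ratio gave 13.1% (245-255) and 28.5% (RBN). The cause of these shifts was not tested. Counting limits the ratios: RXRG, at 3 to 6 fragments, never reached the 20 fragments summed that a ratio needed.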
